A study of Mus musculus with 4 samples.

Results

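The colonies grown from LT-HSC and from ST-HSC were compared after transduction with CreER, on 2 of the 4 arrays of the study. The members of the comparison are the arrays titled for CreER in each population, and the measure is the log2 level on the LT-HSC array minus that on the ST-HSC array for each gene with a probe set of its own symbol. All 4 arrays carry RNA of C57BL/6 cells: LT-HSC with CreER, ST-HSC with CreER, LT-HSC with mock and ST-HSC with mock, 1 array each. Per the labels, the transduced cells formed colonies in methylcellulose with fetal bovine serum and the cytokines GM-CSF, SCF, IL-6 and IL-3, and total RNA of the colony-forming cells was hybridised to Affymetrix whole-transcript arrays. The series title names conditional expression of MLL-ENL, and the design text gives a screen for genes of leukaemic transformation as the purpose. The sources used here do not say how CreER was activated, how long the colonies grew, how the populations were sorted or whether the arrays came from separate cultures or animals.

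LT-HSC and ST-HSC are the field's names for haematopoietic stem cells that rebuild blood for a long or for a short time after transplantation. In medium with these cytokines such cells divide and form colonies of granulocytes, macrophages, mast cells, basophils and, less often, megakaryocytes or erythroid cells. CreER is Cre recombinase joined to the hormone-binding part of an oestrogen receptor, which enters the nucleus after tamoxifen binds it and then removes DNA between loxP sites. MLL-ENL is a leukaemia fusion protein that joins the amino-terminal part of MLL, encoded by Kmt2a, to ENL, encoded by Mllt1, and it is known for holding HoxA genes and Meis1 active. The arrays measured whole colonies, so more cells of a type and more RNA per cell cannot be told apart.

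Of 19938 genes with a named probe set, 10189 exceeded the signal floor on the CreER array with the higher level. The signal floor is the median level over named probe sets of an array, and it lay between 8.07 and 8.13 on the 4 arrays. A gene was counted where its levels differed by at least 2-fold, a log2 difference of at least 1, with the higher level above the floor. Since each group has 1 array, the pairwise differences carry no p-value. Differences of genes under the floor on 1 array have an uncertain size. The mock arrays gave the same population comparison with no array in common. An additive limma fit to all 4 arrays tested the difference between the populations averaged over both transductions. Its error is how far the CreER and mock differences of a gene disagree, moderated across genes. A gene whose 2 differences are unlike thus tends not to pass.

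Colonies carried the RNA of myeloid cells on all 4 arrays. The probe sets of the primary granule genes Mpo, Elane and Ctsg, of the neutrophil genes S100a8, S100a9 and Ltf, and of the lysozyme gene Lyz2 read between 13.07 and 14.16 on every array. Of 9 B cell markers measured, 2 exceeded the floor with CreER, Cd79b and Cd22. Of 10 T and NK cell markers, only Il7r did. The stem cell genes Hlf, Prdm16, Fgd5 and Hoxb5 lay between 6.90 and 8.25 on the 4 arrays, at or below the floor apart from small excesses of Hlf. Of 38 stem and progenitor genes measured, 24 exceeded the floor with CreER, among them Cd34 and Kit at 10.82 and 10.67 on the LT-HSC array. Per the labels, the labelled cell types are those of the transduced cells, and the arrays hold RNA of their colonies. Esr1, whose symbol is that of the mouse oestrogen receptor, read 10.48 and 10.63 on the CreER arrays of LT-HSC and ST-HSC and 9.69 and 9.56 on the mock arrays. Whether its probes read the CreER transcript was not tested. Kmt2a differed by 0.10 between the populations with CreER and Mllt1 by 0.24. The files do not tell native from fusion transcripts.

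After CreER transduction 198 genes differed by at least 2-fold, 1.94% of those past the floor. LT-HSC colonies had the higher level for 142 of them, 1.39% of genes past the floor, and ST-HSC colonies for 56, or 0.55%. Among probe sets with several gene symbols or none, which were left out, the split leaned the other way, with 32 at least 2-fold higher and 196 at least 2-fold lower in LT-HSC. With mock, 278 genes were at least 2-fold higher in LT-HSC (2.72% of 10208) and 41 lower (0.402%), together 3.12%, and 45.1% were above 0. Over the genes past the floor with CreER the median difference was -0.02, with 46.1% above 0, and the central 95% lay from -0.64 to 0.74. The 1027 olfactory receptor genes, of which 8 passed the floor, gave a central 95% from -0.28 to 0.44 and no 2-fold difference with CreER. Their median was 0.07, with 64.8% above 0. The lean varied with level among genes past the floor. Where the higher level was from 8.2 to 9 the median was 0.04, with 57.0% above 0. From 12 to 15 it was -0.06, with 39.5% above 0.

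The LT-HSC side recurred on the mock arrays more fully than the ST-HSC side. Of the 142 genes higher in LT-HSC with CreER, 141 were also higher with mock, and 122 were so by at least 2-fold: 85.9% of the CreER list and 43.9% of the mock list. Their median difference was 1.53 with CreER and 1.78 with mock, and 93 of the 142 had the larger difference with mock. Of the 56 genes lower in LT-HSC, 47 were also lower with mock, but only 12 by at least 2-fold: 21.4% of the CreER list and 29.3% of the mock list. Their median was -1.20 with CreER and -0.57 with mock. Both lists were chosen by their CreER difference, which by itself can make differences on other arrays smaller. The median of the ST-HSC list was smaller in size with mock and that of the LT-HSC list was larger. The part of the choice in this was not tested. Over 9991 genes past the floor in both comparisons, 1.34% were at least 2-fold apart the same way in both, 70.1% had the same sign, and the differences had a Pearson r of 0.71 and a Spearman rho of 0.57, as a description across genes. No gene was at least 2-fold apart in opposite directions.

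**Figure D1:**
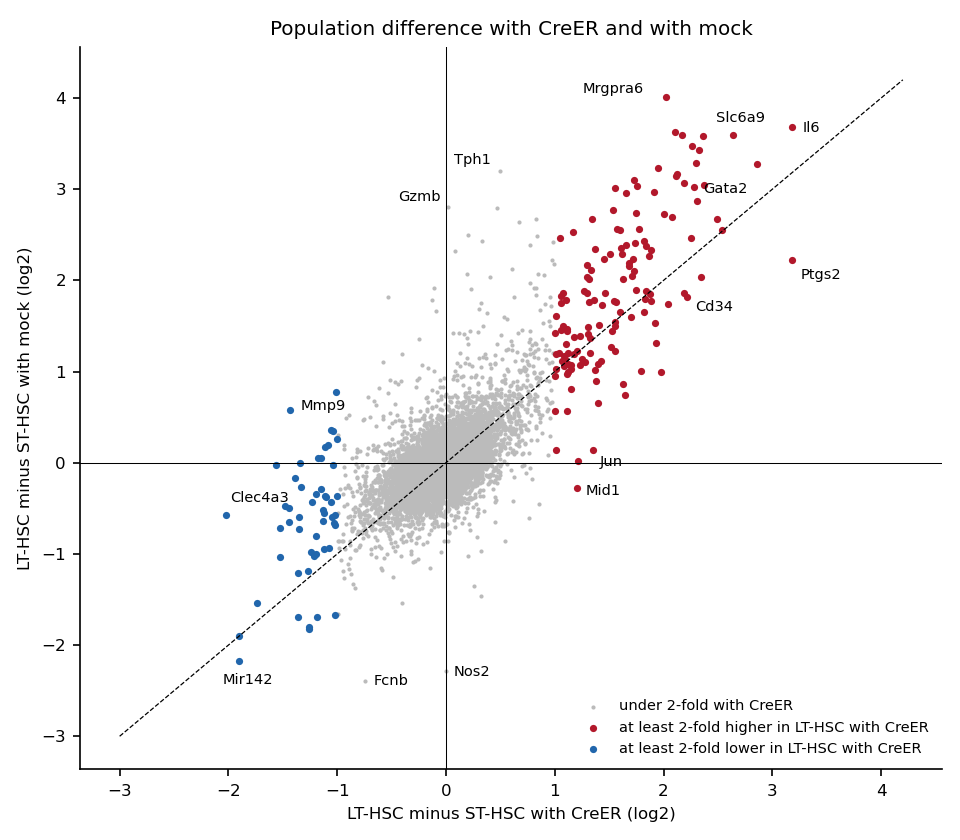
Each point is a gene past the signal floor in both comparisons, with the LT-HSC minus ST-HSC log2 difference with CreER on the horizontal axis and with mock on the vertical axis; the dashed line marks equal differences. Red points, at least 2-fold higher in LT-HSC with CreER, lie almost all above 0 on the mock axis, and many lie above the dashed line, whereas blue points, at least 2-fold lower, spread on the mock axis from -2.18 (Mir142) to 0.78 (Trim12a).

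The additive limma fit tested 10411 genes and found 394 higher in LT-HSC colonies (3.78%) and 259 lower (2.49%) at a Benjamini-Hochberg adjusted p of 0.05. After cyclic loess normalization the split was 257 higher and 111 lower. Of the genes 2-fold apart with CreER, 136 of the 142 higher in LT-HSC passed this fit, or 95.8%, against 27 of the 56 lower, or 48.2%. These shares use the same CreER arrays that chose the genes, so they describe how alike the mock arrays were and are no separate support. The same holds for the limma values of genes named below for the size of their differences. The terms "rose" and "fell" below mean higher or lower in LT-HSC than in ST-HSC colonies in this fit.

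The 15 genes furthest to the LT-HSC side are described first. Levels are given in the order LT-HSC CreER, ST-HSC CreER, LT-HSC mock, ST-HSC mock. Ptgs2, the inducible cyclooxygenase that starts prostaglandin synthesis, read 11.81, 8.62, 11.61 and 9.38. Its CreER difference of 3.19, or 9.09-fold, was the largest, and it rose by 2.71 with an SE of 0.23 (limma, adjusted p = 0.00761). Il6, an inflammatory cytokine that was also in the medium as protein, read 11.04, 7.86, 11.78 and 8.10. Its difference was 3.18 with CreER and 3.68 with mock, and it rose by 3.43 with an SE of 0.14 (limma, adjusted p = 0.00366). For each gene the LT-HSC pair lay above the ST-HSC pair without overlap, and Il6 did not reach the floor in ST-HSC colonies with CreER.

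Igfbp7, a secreted binding protein of insulin-like growth factors, read 12.18, 9.32, 12.60 and 9.32. Slc6a9, a glycine transporter, read 11.41, 8.77, 12.23 and 8.63. F2r, the thrombin receptor PAR1, read 11.30, 8.93, 11.49 and 8.44. These 3 genes exceeded the floor on all 4 arrays and differed with CreER by 2.86, 2.64 and 2.37, or 7.24-, 6.23- and 5.17-fold. Serpinb2, a plasminogen activator inhibitor, was higher by 2.27, Cd226, an adhesion receptor of lymphocytes and platelets, by 2.25, and the progenitor surface glycoprotein Cd34 by 2.22. All 15 genes rose in the limma fit, which includes the CreER arrays that chose them, so this is no separate support.

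**Figure D2:**
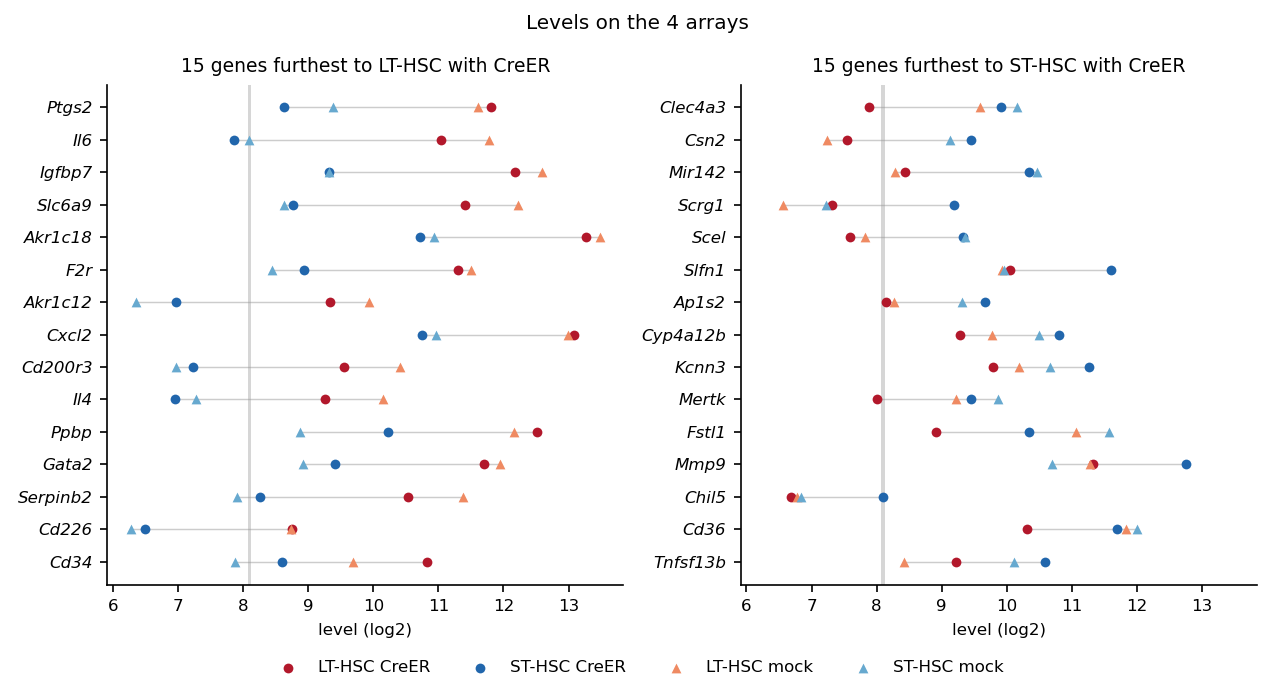
Log2 levels on the 4 arrays of the 15 genes furthest to the LT-HSC side (left) and to the ST-HSC side (right) with CreER, with circles for CreER, triangles for mock, red shades for LT-HSC, blue shades for ST-HSC and a grey band for the signal floor of 8.07 to 8.13. On the left the LT-HSC and ST-HSC levels of each gene stand apart under both transductions; on the right several genes, such as Slfn1, stand apart with CreER alone.

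Mast cell and basophil genes were higher in LT-HSC colonies after CreER. Mast cells and basophils store histamine and proteases in granules and release them when IgE receptors are crosslinked, and GATA2 is a factor that both lineages need. Of 26 listed genes past the floor, 23 were above 0, 9 were at least 2-fold higher and none was 2-fold lower, with a median of 0.53 against -0.02 over all genes past the floor. With no floor the list median was 0.32. The list includes Csf1, a secreted growth factor, and Kit, the SCF receptor, which progenitors also carry. Of 27 tested by limma, 12 rose and none fell.

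Among the granule proteases, Mcpt8, a basophil protease, read 13.20, 11.49, 13.33 and 11.28. Prss34, another basophil and mast cell protease, read 12.57, 10.75, 12.50 and 10.85. Both LT-HSC levels of each gene lay above both ST-HSC levels, by 1.71 and 1.82 with CreER and by 2.05 and 1.65 with mock. Cpa3, the mast cell carboxypeptidase, read 13.09, 12.31, 13.54 and 11.15, a smaller gap with CreER (0.78) than with mock (2.39). Gzmb, granzyme B, did not separate the CreER arrays, with 10.41 against 10.39, but read 11.57 against 8.77 with mock. The connective tissue and mucosal mast cell proteases Cma1, Mcpt1, Mcpt2, Mcpt4 and Tpsab1 were under the floor on the 4 arrays.

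Histamine and amine storage followed the same direction. Hdc, which makes histamine, read 12.59, 10.84, 12.80 and 10.05. Slc18a2, the vesicular transporter that loads amines into granules, read 10.55, 8.60, 11.25 and 8.02. Each was over 3-fold higher in LT-HSC with CreER, by 1.75 and 1.95 on the log2 scale, and each rose in the limma fit. Tph1, which starts serotonin synthesis in mast cells, read 8.95, 8.45, 10.34 and 7.13, so its difference was 0.50 with CreER and 3.20 with mock.

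Of the receptors, Cd200r3, an activating receptor of mast cells and basophils, read 9.55, 7.23, 10.41 and 6.97, and Mrgpra6, a Mas-related receptor, read 8.97, 6.95, 10.30 and 6.29. Both were under the floor on both ST-HSC arrays. The prostaglandin receptor Ptger3 was higher by 1.61 and the integrin subunit Itga2 by 1.04, the latter by 0.97 after median centring. The IgE receptor chains differed less with CreER: Fcer1a by 0.47 and Ms4a2 by 0.99, against 2.79 and 2.18 with mock, and the shared chain Fcer1g by -0.14. The mean level of the 26 genes was 10.67 and 9.84 on the CreER arrays of LT-HSC and ST-HSC, and 11.16 and 9.43 on the mock arrays.

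GATA factors moved with these genes. Gata2 read 11.70, 9.41, 11.94 and 8.92, a 4.87-fold higher level in LT-HSC with CreER, and rose by 2.65 with an SE of 0.19 (limma, adjusted p = 0.00554). Gata1, needed by mast, erythroid and megakaryocytic cells, read 8.82, 7.50, 9.07 and 7.31 and rose. Gfi1b, a repressor of the same lineages, was higher by 1.12 and Zfpm1, the GATA1 cofactor FOG1, by 0.96. Of 12 genes of the GATA axis past the floor, 11 were above 0, and Mitf, a mast cell and pigment cell factor, was the exception at -0.35. Of 14 granulocyte and monocyte factors, 9 were below 0, with Spi1 at -0.22, Irf8 at -0.33 and Bhlhe41 at -0.75, and none passed the limma fit.

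**Figure D3:**
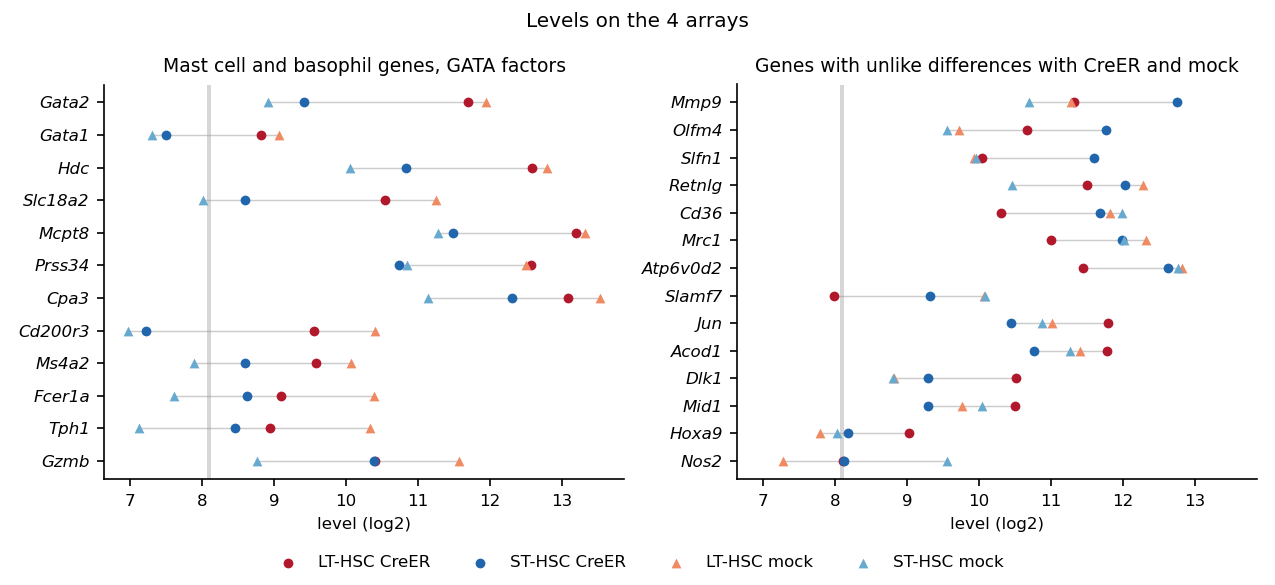
Log2 levels on the 4 arrays for GATA factors with mast cell and basophil genes (left) and for genes whose population differences were unlike with CreER and with mock (right), with circles for CreER, triangles for mock, red shades for LT-HSC, blue shades for ST-HSC and a grey band for the signal floor. Gata2, Hdc and Mcpt8 separate LT-HSC from ST-HSC under both transductions, while the 2 circles of Gzmb coincide at 10.41 and 10.39 and its triangles lie at 11.57 and 8.77.

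Cytokine genes differed in both directions, more of them higher in LT-HSC. Il4 and Il13, the type 2 cytokines, read 9.25, 6.95, 10.15 and 7.28, and 9.94, 8.10, 10.74 and 8.36. Il1b was higher in LT-HSC with CreER by 1.98, Il1a by 1.43 and the IL-6 family cytokine Lif by 1.66, and all 3 rose. Of 21 cytokine genes past the floor 15 were above 0, 6 at least 2-fold higher and 2 at least 2-fold lower, with a median of 0.57, or 0.19 with no floor. By limma 9 rose and 2 fell. Those that fell were Tnfsf13b, the B cell survival factor BAFF, at 9.22, 10.58, 8.42 and 10.11, and Il18, at 7.03, 8.25, 7.28 and 8.30. Tnf read 12.11 and 11.99 on the CreER arrays, a difference of 0.12, so the inflammatory cytokines did not all differ one way.

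Chemokines listed as neutrophil-attracting were higher in LT-HSC colonies. All 5 of this role past the floor were at least 2-fold higher with CreER: Cxcl2 by 2.34, Ppbp by 2.29, Cxcl3 by 1.89, Cxcl1 by 1.55 and Pf4 by 1.40. Cxcl2 read 13.09, 10.75, 12.99 and 10.96, a 5.06-fold difference with CreER, and rose by 2.19 with an SE of 0.11 (limma, adjusted p = 0.00421). Ppbp and Pf4 are also platelet granule genes and are counted again in the megakaryocyte and platelet list below. Of 9 chemokines that attract monocytes and lymphocytes, 1 was 2-fold higher, the eosinophil chemokine Ccl24 at 8.36, 7.07, 9.44 and 7.27. Ccl3 and Ccl9 differed by 0.24 and 0.37, and Ccl2 by 0.38 with CreER against 1.64 with mock. Of 15 chemokines tested by limma, 6 rose and none fell.

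The promoters of 4 of these genes are shown because each holds the same NF-kappaB motif. NF-kappaB is the factor that many inflammatory stimuli release into the nucleus. The windows are from RefSeq on GRCm38.p6, cover 250 bases before and 50 bases after the annotated start, and are written 5′ to 3′ with the match in capitals. The motif searched on both strands was GGANTTTCC.
Cxcl1 (chr5:90890995-90891294, plus strand): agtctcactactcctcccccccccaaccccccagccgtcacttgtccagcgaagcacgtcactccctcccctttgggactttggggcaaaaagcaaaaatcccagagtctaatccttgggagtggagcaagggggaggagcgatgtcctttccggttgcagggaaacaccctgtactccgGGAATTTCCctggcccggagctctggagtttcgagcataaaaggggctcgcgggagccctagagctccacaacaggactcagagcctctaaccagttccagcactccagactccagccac
Cxcl2 (chr5:90903649-90903948, plus strand): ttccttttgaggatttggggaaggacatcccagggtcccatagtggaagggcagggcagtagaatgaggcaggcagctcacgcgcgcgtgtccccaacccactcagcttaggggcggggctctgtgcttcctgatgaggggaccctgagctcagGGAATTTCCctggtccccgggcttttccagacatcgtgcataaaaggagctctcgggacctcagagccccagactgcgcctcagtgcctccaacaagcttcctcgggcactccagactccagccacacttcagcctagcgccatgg
Cxcl3 (chr5:90785851-90786150, plus strand): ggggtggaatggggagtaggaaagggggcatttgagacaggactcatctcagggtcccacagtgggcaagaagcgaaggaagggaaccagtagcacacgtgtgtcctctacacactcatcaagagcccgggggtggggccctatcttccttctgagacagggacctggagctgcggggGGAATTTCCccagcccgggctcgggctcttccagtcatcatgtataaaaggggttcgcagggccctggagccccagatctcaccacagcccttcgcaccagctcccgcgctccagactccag
Il6 (chr5:30012864-30013163, plus strand): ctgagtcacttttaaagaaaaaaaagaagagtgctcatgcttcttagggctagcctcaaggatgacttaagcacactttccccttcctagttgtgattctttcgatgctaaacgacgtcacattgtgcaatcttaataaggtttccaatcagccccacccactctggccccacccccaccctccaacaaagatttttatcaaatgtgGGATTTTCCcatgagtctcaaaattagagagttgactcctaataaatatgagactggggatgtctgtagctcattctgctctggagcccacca

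The match begins 70 bases before the start in Cxcl1, 96 in Cxcl2, 72 in Cxcl3 and 43 in Il6. The 3 chemokine genes lie on the same chromosome and carry identical letters at the match. Of 5 chemokine genes at least 2-fold higher that had a window, 3 held the motif, and of 102 genes at least 2-fold higher in LT-HSC with a window, 9 did, or 8.82%. It was in 1.45% of all 27025 genes of the promoter table, in 1.69% of 8249 genes past the floor and in 0 of 41 genes at least 2-fold lower. The cytokine gene Il13 and the feedback gene Tnfaip3 held it too. The motifs were picked after the values were seen and the share was not tested. A match describes the letters and is no site of binding.

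Other listed NF-kappaB targets were mixed. Of 19 past the floor 14 lay above 0, the median was 0.26, and 3 were at least 2-fold higher: Serpinb2, Nfkbiz by 1.53 and Tnfaip3, which restrains NF-kappaB signalling, by 1.40. Nfkbiz, a nuclear coactivator that Il6 needs, read 11.01, 9.48, 10.77 and 9.33 and rose. Nfkbia and Relb were higher by 0.53 and 0.35 without passing the fit, while Icam1 differed by 0.08 and Birc3 by -0.18. By limma 4 of 19 rose and none fell.

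Prostaglandin and leukotriene enzymes as a list did not differ in the same way as Ptgs2. Of 14 past the floor, Ptgs2 among them, 7 were above 0 and 7 below. Their median was 0.03, or -0.04 after median centring and 0.15 with no floor. Of the 8 in the prostaglandin part, Ptgs2 included, 4 were above 0 and 4 below. Ptges and Pla2g4a, which act after and before cyclooxygenase, differed by 0.40 and 0.15, and Hpgds, which makes prostaglandin D, by -0.24. Alox12, the platelet lipoxygenase, read 8.39, 7.11, 7.77 and 6.90 and was higher by 1.28. Ptgs2, Alox12 and Alox15 rose, and none of the 15 tested fell.

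Akr1c aldo-keto reductases, which reduce steroids and prostaglandins, separated the populations widely for 3 members. Akr1c18 read 13.26, 10.72, 13.48 and 10.93, Akr1c12 read 9.34, 6.98, 9.93 and 6.35, and Akr1c13 read 9.60, 8.06, 10.32 and 7.55. Their differences with CreER were 2.54, 2.37 and 1.54, and all 3 rose. The other 5 measured members were under the floor on the CreER arrays. These genes are close copies, so probes may be shared and the split between Akr1c12 and Akr1c13 is uncertain.

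Immediate early genes, which cells switch on within minutes of a stimulus, were mostly higher. Of 33 past the floor 29 lay above 0, the median was 0.46, and 6 were at least 2-fold higher. Fosb, an AP-1 subunit, read 10.19, 8.26, 9.54 and 8.22. Egr1, a zinc finger factor, read 11.08, 9.71, 10.95 and 9.93. Gadd45a, a stress-induced gene, read 11.05, 9.31, 11.33 and 8.92. Rgs1, Dusp1 and Jun were higher by 1.38, 1.15 and 1.35, and of these 6 genes all but Jun rose. Jun read 11.80, 10.44, 11.02 and 10.88, so the LT-HSC array stood above the ST-HSC array with CreER but not by more than 0.14 with mock. Fos differed by 0.22 and Atf3 by 0.16. Of the 33, limma found 12 to rise and none to fall.

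Genes of amino acid supply under ATF4 formed one of the most even differences. ATF4 is the factor translated when amino acids run short or the endoplasmic reticulum is under stress, and it switches on amino acid synthesis and import. Of 32 genes past the floor 31 were above 0, 10 were at least 2-fold higher and none was lower by that much, with a median of 0.76 with CreER and 0.98 with mock. In the limma fit 21 of 32 rose and none fell.

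Among synthesis genes, Cth, which makes cysteine, read 9.85, 7.68, 10.75 and 7.15. Bcat1, Aldh18a1 and Mthfd2 were higher by 1.21, 1.09 and 1.07, while Asns and Phgdh, for asparagine and serine, were higher by 0.81 and 0.92 and rose. Among transporters, Slc7a5, the large neutral amino acid carrier, read 12.96, 11.40, 13.23 and 11.47. Slc1a4 and Slc7a1 were higher by 1.28 and 1.08. Of the regulators, Atf4 itself read 11.25, 10.50, 11.39 and 10.66 and rose, Trib3, a pseudokinase target of ATF4, read 9.78, 8.61, 10.86 and 8.33, and Chac1, which breaks down glutathione, read 10.74, 9.69, 10.98 and 9.53. Chac1 differed by 1.06, or by 0.99 after median centring. The difference of Trib3 was 1.17 with CreER and 2.53 with mock.

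The promoters of Chac1 and Trib3 are shown because they hold the amino acid response motif TGATGNAA, searched on both strands and found here as its reverse complement, in capitals.
Chac1 (chr2:119350992-119351291, plus strand): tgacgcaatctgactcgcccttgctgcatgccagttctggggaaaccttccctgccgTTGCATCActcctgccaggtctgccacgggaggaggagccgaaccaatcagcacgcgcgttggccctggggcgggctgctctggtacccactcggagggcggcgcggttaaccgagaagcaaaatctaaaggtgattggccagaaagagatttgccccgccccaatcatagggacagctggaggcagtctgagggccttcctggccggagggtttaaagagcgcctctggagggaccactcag
Trib3 (chr2:152344011-152344310, minus strand): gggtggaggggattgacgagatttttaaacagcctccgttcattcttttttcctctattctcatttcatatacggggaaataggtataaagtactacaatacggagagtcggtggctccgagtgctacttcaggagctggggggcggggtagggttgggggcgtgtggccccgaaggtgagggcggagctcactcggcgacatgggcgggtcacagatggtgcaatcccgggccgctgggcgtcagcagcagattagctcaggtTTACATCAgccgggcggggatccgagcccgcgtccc

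The match begins 193 bases before the start in Chac1 and at base 15 after the start in Trib3. With Slc1a4, 3 of 8 such genes at least 2-fold higher with a window held it. It was in 7 of the 102 genes at least 2-fold higher, or 6.86%, in 2 of 41 at least 2-fold lower, in 2.76% of genes past the floor and in 4.51% of the table. The same windows were searched for the GATA motifs AGATAA or TGATAA. These were in 21 of the 102 genes, or 20.6%, in 5 of the 41 lower genes, in 12% of genes past the floor and in 21% of all genes of the table. Among 8 mast cell and basophil genes at least 2-fold higher with a window, Cd200r3, Prss34 and Slc18a2 held it. The basophil promoters of Cd200r3, with a match on each strand, and of Prss34 are given as the examples.
Cd200r3 (chr16:44943428-44943727, plus strand): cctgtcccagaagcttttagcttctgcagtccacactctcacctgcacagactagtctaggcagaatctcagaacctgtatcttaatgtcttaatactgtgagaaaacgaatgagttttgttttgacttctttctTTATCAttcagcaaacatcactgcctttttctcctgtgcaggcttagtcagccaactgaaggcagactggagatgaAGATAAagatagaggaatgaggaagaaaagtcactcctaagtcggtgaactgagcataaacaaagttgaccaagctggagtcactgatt
Prss34 (chr17:25298144-25298443, plus strand): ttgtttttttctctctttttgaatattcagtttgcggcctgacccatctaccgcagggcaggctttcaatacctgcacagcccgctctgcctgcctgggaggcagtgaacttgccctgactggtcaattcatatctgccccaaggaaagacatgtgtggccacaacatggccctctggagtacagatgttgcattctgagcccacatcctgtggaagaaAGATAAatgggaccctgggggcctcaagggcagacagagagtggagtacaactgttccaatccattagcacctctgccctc

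In Cd200r3 the matches begin 115 and 39 bases before the start, and in Prss34 the match begins 31 bases before it. The data hold no binding or chromatin measurement at these promoters.

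Ribosome biogenesis genes were all higher, each by less than 2-fold. Of 19 past the floor 19 were above 0 with CreER and 18 with mock, with medians of 0.63 and 0.38. Dkc1, the pseudouridine synthase of ribosomal RNA, read 10.20, 9.35, 10.20 and 9.59, and the nucleolar proteins Npm1, Ncl and Nop56 were higher by 0.65, 0.52 and 0.62. In the limma fit 8 of 19 rose and none fell. Small nucleolar RNA genes had 30 of 37 past the floor above 0 with CreER, a median of 0.27, and 0.02 with mock. Snord118, the small RNA U8 used in ribosomal RNA processing, read 9.63, 8.005, 9.15 and 8.29, and Snora75 was higher by 1.11. Myc, which drives many of these genes, was higher by 0.57 and rose.

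Megakaryocyte and platelet genes were higher as well. Of 26 past the floor 24 were above 0, 9 were at least 2-fold higher and none lower, with a median of 0.69, and 13 of 27 rose while none fell. Itga2b, the CD41 subunit of the fibrinogen receptor, read 10.28, 8.60, 10.32 and 8.16, and its partner Itgb3 read 10.76, 9.65, 10.88 and 9.41. Gp9, of the von Willebrand factor receptor, read 10.03, 8.70, 9.74 and 8.54. Ppbp read 12.52, 10.23, 12.17 and 8.88, and Rab27b, of granule release, was higher by 1.45. Several listed genes are not limited to megakaryocytes, since mast cells carry Itga2b, Itgb3 and Rab27b too. Other members lay close together: Vwf differed by 0.05, Tubb1 by 0.24, Nfe2 by 0.04 and Thbs1 by 0.13. Which cells gave the RNA was not tested.

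Erythroid genes were mostly under the floor. Of 23 measured 8 passed it, 7 of them above 0, and 4 rose. Car2, a carbonic anhydrase, read 9.90, 8.59, 9.66 and 8.25, and Klf1, the erythroid factor, read 8.18, 7.63, 8.12 and 7.52, near the floor. Alas2, the erythroid haem enzyme, was under the floor on the 4 arrays, and Tfrc differed by 0.02. Eosinophil granule genes had smaller differences with CreER than with mock: Epx read 13.06, 12.25, 12.81 and 10.89, Prg2 read 12.73, 12.12, 12.82 and 10.70, and only Epx rose.

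**Figure D4:**
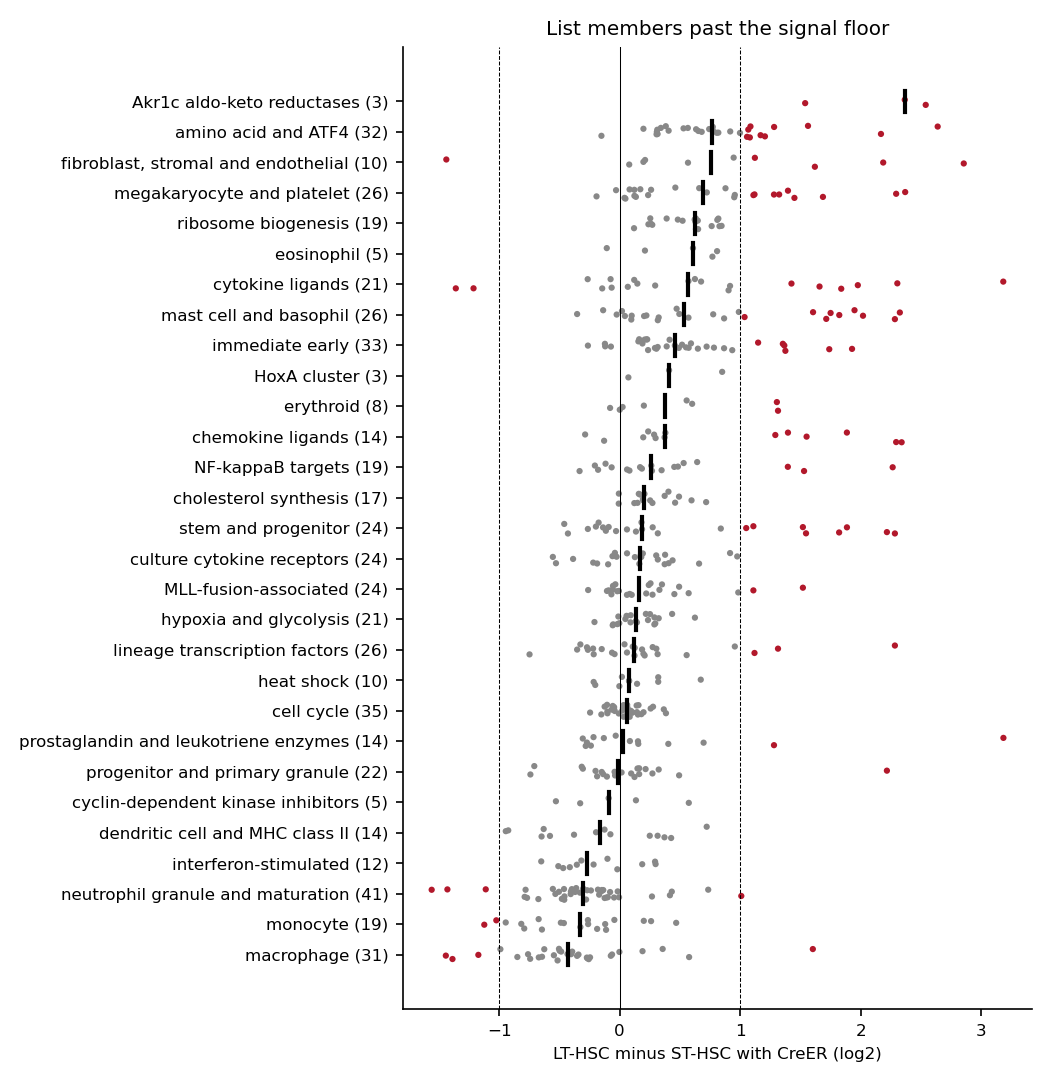
LT-HSC minus ST-HSC log2 difference with CreER of each list member past the signal floor, with the number of such members after the list name, red for differences of at least 2-fold, grey for smaller ones and a black bar for the list median. Medians run from 2.37 for the 3 Akr1c members to -0.43 for 31 macrophage genes, beside -0.02 over all genes past the floor; with no floor these become 0.39 and -0.25.

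Some stem and progenitor genes were higher, while the list as a whole lay near 0. Of 24 past the floor 15 were above 0, 8 were at least 2-fold higher and none lower, and the median was 0.18, or 0.06 with a floor at the 75th percentile. Cd34 read 10.82, 8.60, 9.69 and 7.87, so both arrays with CreER stood above their mock counterparts, and it rose by 2.02 with an SE of 0.13 (limma, adjusted p = 0.00421). Adgrg1, an adhesion receptor of stem cells, read 11.96, 10.08, 11.74 and 9.97. Angpt1, a ligand of the Tek receptor, read 8.28, 6.46, 8.19 and 5.76, and Ikzf2, a lymphoid and stem cell factor, read 9.77, 8.23, 9.85 and 8.08. Cd27 was higher by 1.05 with CreER, by 0.98 after cyclic loess normalization and by 0.15 with mock. Kit, Procr and Cd48 differed by 0.32, -0.14 and -0.11. Of 24 tested 8 rose and none fell, and Gata2 and Cd34 are among them and also stand in other lists.

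Genes tied to MLL fusions differed for a few members. Meis1, the HOXA9 partner, read 9.11, 7.59, 8.37 and 7.10, a difference of 1.52 with CreER and 1.27 with mock, and rose by 1.40 with an SE of 0.11 (limma, adjusted p = 0.00606). Zbtb16, the transcription factor PLZF, read 8.98, 7.87, 8.37 and 7.81 and rose by 0.84 with an SE of 0.15 (limma, adjusted p = 0.0437). Mecom, which encodes EVI1, was under the floor on the 4 arrays, with 7.33, 6.21, 6.37 and 6.01. Bcl2 and Myc rose, while Myb, Mef2c and Cdk6 differed by 0.49, 0.33 and 0.45 with CreER and by -0.03, -0.16 and 0.14 with mock, without passing the fit. Over 24 past the floor the median was 0.16, 15 were above 0, and 4 rose. The median was 0.24 with no floor and 0.08 with the 75th percentile floor.

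HoxA genes were low on the arrays. Hoxa9 read 9.04, 8.18, 7.79 and 8.02, so the LT-HSC CreER array stood 0.85 above the ST-HSC CreER array, and the mock arrays differed by -0.23. Hoxa7 read 8.25, 7.84, 7.75 and 7.69, and Hoxa4 differed by 0.07. The other 7 measured, Hoxa2, Hoxa3, Hoxa5, Hoxa6, Hoxa10, Hoxa11 and Hoxa13, were under the floor on the CreER arrays. The 10 measured differences with CreER all lay above 0 in the values as deposited, the median being 0.35, beside 58.2% of all 19938 genes above 0. Of the olfactory receptor genes, most of them also under the floor, 64.8% lay above 0, with a median of 0.07. Limma tested 3 of them, and none passed an adjusted p of 0.05.

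On the ST-HSC side, Clec4a3, a C-type lectin receptor of myeloid cells, read 7.89, 9.91, 9.59 and 10.16. Its difference of -2.02 was the largest on this side, but with mock it was -0.57, and it did not pass the limma fit (adjusted p = 0.0863). The low LT-HSC CreER array thus sets it apart from the other 3. Clec4a1, a related receptor, read 7.26, 8.52, 7.93 and 9.12 and fell. Because the Clec4a genes are similar, shared probes are possible.

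A smaller group was lower in LT-HSC under both transductions. Csn2, a milk casein gene, read 7.55, 9.46, 7.23 and 9.12. Scel, sciellin of cornified cells, read 7.59, 9.33, 7.82 and 9.36. Orm1, an acute phase protein, read 10.05, 11.31, 8.75 and 10.55. In each the ST-HSC pair lay above the LT-HSC pair, although Csn2 and Scel were under the floor on both LT-HSC arrays. Gal, the neuropeptide galanin, was lower by 1.26, Slco4c1, an organic anion transporter, by 1.19 and Ap1s2, a clathrin adaptor subunit, by 1.53. These 6 genes and Tnfsf13b fell in the limma fit, with adjusted p from 0.00421 for Csn2 to 0.0137 for Ap1s2. They were picked for large differences in both comparisons on the same arrays, so passing follows from that choice and is no separate support.

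Both microRNA genes at least 2-fold apart were lower in LT-HSC colonies. Their mature sequences are shown because the seed, bases 2 to 8, in capitals, decides which transcripts a microRNA pairs with. They are from RefSeq on GRCm38.p6.
miR-142a-5p (chr11:87756867-87756887, plus strand): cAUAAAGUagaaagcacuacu
miR-142a-3p (chr11:87756903-87756925, plus strand): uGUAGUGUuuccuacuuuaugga
miR-15a-5p (chr14:61632075-61632096, minus strand): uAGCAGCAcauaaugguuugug
miR-15a-3p (chr14:61632038-61632059, minus strand): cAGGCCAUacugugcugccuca

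Mir142, a microRNA gene known for its blood cell expression, read 8.43, 10.33, 8.28 and 10.46 and fell by 2.04 with an SE of 0.11 (limma, adjusted p = 0.00421). Mir15a, of the miR-15 and miR-16 family that targets Bcl2 and cyclins, read 8.62, 9.97, 8.403 and 9.62 and fell by 1.29 with an SE of 0.10 (limma, adjusted p = 0.00606). For each gene the LT-HSC pair and the ST-HSC pair did not overlap. Of 300 microRNA genes with a named probe set, of which 270 matched the RefSeq table, 52 exceeded the floor and 38 of these were above 0, so microRNA probe sets did not fall as a class. The seed of miR-15a-5p is shared by 11 genes of the table, of which 6 were measured and only Mir15a passed the floor. The array does not tell the mature microRNA from its precursor or host transcript.

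Neutrophil genes leaned to the ST-HSC side with CreER. Of 41 past the floor 36 were below 0, with a median of -0.30, against -0.03 with mock. Mmp9, the gelatinase of tertiary granules, read 11.32, 12.75, 11.28 and 10.70. The ST-HSC CreER array stood above the other 3, and the sign of the difference was opposite with mock. Olfm4, a marker of a neutrophil subset, read 10.66, 11.77, 9.73 and 9.55, and Slfn1, a Schlafen gene, read 10.04, 11.60, 9.93 and 9.95. In both the ST-HSC CreER array was again the highest. Acod1, which makes itaconate, went the other way at 11.78, 10.77, 11.41 and 11.27, a difference of 1.01, or 0.94 after median centring.

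The 20 listed secondary and tertiary granule genes had a CreER median of -0.32, with 19 below 0 and 2 at least 2-fold lower. Examples under 2-fold were Ngp at -0.11, Lcn2 at -0.14 and Ltf at -0.40, and the neutrophil gene S100a8 differed by -0.10. The G-CSF receptor Csf3r was lower by 0.55 and Itgam, which encodes CD11b, by 0.36 without passing the fit. In the limma fit 1 of 41 neutrophil genes rose, Slpi, and 1 fell, Lrg1. Primary granule and progenitor genes split evenly, 11 above and 11 below 0, with Mpo at 0.22, Elane at 0.10 and Fcnb, a ficolin, at -0.74.

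Macrophage genes were lower in LT-HSC colonies with CreER. Of 31 past the floor 27 were below 0, with a median of -0.43, and with mock the median was 0.00. With no floor the CreER median was -0.25. The 9 scavenger and uptake receptors past the floor were all below 0. Cd36, a fatty acid and lipoprotein receptor, read 10.30, 11.69, 11.83 and 11.99, and Mertk, which takes up dead cells, read 8.01, 9.45, 9.21 and 9.86. Mrc1, the mannose receptor, read 10.997, 11.99, 12.32 and 12.02, and Atp6v0d2, a proton pump subunit, read 11.45, 12.63, 12.82 and 12.76. In these 4 genes the LT-HSC CreER array was the lowest of the 4, and the remaining 3 lay closer together. Fstl1, listed as a stromal gene, read 8.90, 10.34, 11.07 and 11.56, with the LT-HSC CreER array also the lowest.

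Mertk, Msr1, Lpl and Fabp4 fell in the limma fit, and Arg1, which breaks down arginine, rose, with 11.09, 9.48, 12.06 and 10.40. Abca1, a cholesterol exporter, rose as well. Retnla also passed the fit, but its levels with CreER stayed under the floor. It was tested because its LT-HSC level with mock was higher than the floor, so it does not count as a difference with CreER. Nos2, which uses the same substrate as Arg1, read 8.12 on each CreER array and 7.27 and 9.56 with mock. The mean level of the 31 genes was 10.67 and 11.06 on the CreER arrays of LT-HSC and ST-HSC and 11.36 and 11.42 on the mock arrays. The part of macrophage number in these differences was not tested.

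Monocyte and antigen presentation genes had a similar lean. Of 19 monocyte genes past the floor 16 were below 0, with a median of -0.33. Ms4a6c, a surface protein, read 8.80, 9.93, 9.36 and 10.31 and Tifab, a signalling adaptor-like protein, read 9.65, 10.68, 9.39 and 11.06. Both fell, as did Treml4, although Tifab was lower by 0.99 after quantile normalization. Csf1r, the macrophage growth factor receptor, differed by -0.19 and Cd14 by 0.47. Of 6 MHC class II genes past the floor 5 were below 0, with H2-Aa lower by 0.95 and H2-Ab1 by 0.63, and H2-Oa, a modulator of peptide loading, rose. With no floor the median of the dendritic cell and MHC list was 0.07, in place of -0.16.

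Proliferation genes barely separated the CreER arrays. Of 35 measured, all past the floor, 23 were above 0, and none was 2-fold apart. Their median was 0.06 as deposited and just below 0 after median centring. With mock 33 of 35 were below 0, with a median of -0.23. Mki67 read 12.74, 12.63, 12.40 and 12.64, so the LT-HSC mock array was the lowest. Replication genes such as Mcm6, at 0.37, were above 0 in 15 of 16, and mitosis genes such as Plk1, at -0.10, in 8 of 19. Cdkn2b, an inhibitor of CDK4 and CDK6, rose, and Cdkn2c fell, with differences of 0.57 and -0.53.

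Cholesterol synthesis and hypoxia genes had opposite signs with CreER and mock. Of 17 cholesterol genes 15 were above 0 with CreER, with a median of 0.21, and 16 were below 0 with mock, with a median of -0.14. Insig1, the sterol sensor partner, read 12.51, 11.79, 11.94 and 11.96. Of 21 hypoxia and glycolysis genes 15 were above 0 with CreER and 18 below 0 with mock, with medians of 0.13 and -0.27. After median centring the CreER median was 0.07. Bnip3, a hypoxia target of mitophagy, read 11.80, 11.48, 10.97 and 11.95. None of either list passed the limma fit. Interferon-stimulated genes had a median of -0.27, or -0.084 with no floor, with 9 of 12 below 0, and heat shock genes one of 0.08, or 0.01 after median centring, again with none passing.

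Receptors for the cytokines in the medium differed by less than 2-fold. Il3ra, the IL-3 receptor chain, was higher by 0.66 and rose, and Il6ra was lower by 0.53 and fell. Csf2ra and Csf2rb, of the GM-CSF receptor, differed by 0.06 and 0.18. Of genes downstream, Pim2, Osm and Spred1 rose.

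Stromal and endothelial genes were listed to look for other cells. Of 24 measured 10 exceeded the floor with CreER and 9 of these were above 0, 4 of them at least 2-fold higher, while 1, Fstl1, was at least 2-fold lower. Their median was 0.76, but 0.22 with no floor and 1.62 with the 75th percentile floor. By limma 6 of 11 rose and none fell. Igfbp7, Timp3, Pecam1 and Eng were higher in LT-HSC, by 2.86, 2.19, 1.62 and 1.12, and each rose. Pdgfrb, a growth factor receptor of pericytes and fibroblasts, read 8.39, 7.44, 8.68 and 7.44, and Tie1, an endothelial receptor, read 8.15, 7.58, 8.201 and 7.60. These 2 rose as well, and both were under the floor in ST-HSC colonies. The mean level of the 10 genes was 9.32 and 8.49 on the CreER arrays of LT-HSC and ST-HSC and 9.55 and 8.60 on the mock arrays. Blood cells express Pecam1, Eng and Timp3 too. The defining stromal genes Pdgfra, Dcn, Lum, Postn and Lepr and the endothelial genes Cdh5, Kdr and Plvap were under the floor on the 4 arrays. Col1a1 differed by 0.08 and Col3a1 by 0.20. The part of other cells in these differences was not tested.

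The next genes had the most unlike differences between CreER and mock. Retnlg, a resistin-like gene of neutrophils, read 11.50, 12.03, 12.28 and 10.47, so ST-HSC was the higher with CreER and LT-HSC with mock. F2rl2, a thrombin receptor, read 11.50, 11.42, 11.95 and 9.62, Ctse, cathepsin E, read 9.53, 9.20, 10.67 and 8.23, and Ch25h, which makes an oxysterol, read 8.95, 9.06, 10.26 and 8.34. In these 3 the CreER arrays were alike and the ST-HSC mock array was the lowest. Fcnb read 12.08, 12.82, 10.43 and 12.82 and F13a1, a clotting factor subunit of monocytes and platelets, read 11.24, 10.98, 10.82 and 12.18. Hspa1a, a heat-inducible chaperone, read 9.19, 8.87, 8.96 and 10.42, with the ST-HSC mock array apart.

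Of the 142 genes at least 2-fold higher in LT-HSC with CreER, 20 were not so with mock. Mid1, a ubiquitin ligase, read 10.50, 9.30, 9.77 and 10.05, a difference of 1.21 with CreER and -0.28 with mock. Dlk1, a Notch-related ligand singled out after its values were seen, differed by 1.21 with CreER and 0.02 with mock. The difference between the CreER and mock comparisons has no residual degrees of freedom with 1 array per group, so whether CreER changed the population difference of any gene was not tested.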

How the data were processed

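RNA of colony-forming cells was measured on 4 arrays, 1 per group, and groups were taken from the labels. Values were deposited on a log2 scale, which was inferred from their range of 2.21 to 14.82. Per the submitters' processing notes, they come from Affymetrix Expression Console; the sources used here give no version, summarisation or normalization method. Such summaries can compress differences near background, which was not tested here.

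Of 35556 probe sets, 21789 had 1 gene symbol, 1621 several and 12146 none in the platform annotation, and 21698 gene numbers matched the RefSeq table of GRCm38.p6. The 19938 genes were each represented by the probe set with the highest mean over the 4 arrays; 999 had several. The sources used here do not state the annotation's build, so coordinates are those of RefSeq. Genes of families with near copies (Akr1c, Cyp4a12, Clec4a, Slfn) may share probes.

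The values were used as deposited. The additive fit used limma 3.58.1 in R 4.3.3 (lmFit, eBayes) with terms for population and transduction on the 10411 genes that exceeded the floor on any array, Benjamini-Hochberg adjusted over all of them, with 1 residual degree of freedom and a prior of 4.27. The residual of a gene is the disagreement between its CreER and mock differences, so these p-values hold no spread between replicates. Technical noise and a change of the population difference with CreER cannot be told apart in that residual. The labels do not say that arrays came from separate cultures. The steps were tested on simulated data. The precision is limited by the number of arrays.

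Named genes were the 15 furthest to each side with CreER, all members of 31 lists (731 of 795 entries measured) that were at least 2-fold apart, up to 6 further members of each list, 10 to each side that differed most in both comparisons alike, 10 to each side differing most from mock, and a fixed set (Esr1, Kmt2a, Mllt1, HoxA, Meis1, Zbtb16, Mecom, Gata2, Gata1, Kit, Cd34, Csf1r, Mpo, Itgam). The first set leaves out olfactory and vomeronasal receptors and unnamed gene models. Dlk1, Trim12a, the small nucleolar RNA genes, several list members beyond 6 and the motifs were chosen after their values were seen. The members and lists were chosen with earlier results of these data known. Alternatives were quantile, cyclic loess and median normalization, the mean of probe sets, other floors, 1.5- and 3-fold thresholds, a trend in the prior and an adjusted p of 0.1.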

Additional observations from a re-analysis of the deposited data

Results flagged for a closer look

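The population difference had opposite signs with CreER and with mock, by at least 0.5 each on the log2 scale, for 16 genes past the floor in both comparisons, of which 5 are named by the rule for named genes. Nrgn, a calmodulin-binding protein gene, was 0.76 higher in LT-HSC than in ST-HSC with CreER and differed by -0.61 with mock. Ak4, a mitochondrial adenylate kinase gene, gave 0.55 with CreER and -0.85 with mock. Retnlg gave -0.53 and 1.82, the integrin gene Itgax, which encodes CD11c, -0.58 and 1.11, and Mmp9 -1.43 and 0.58. With 1 array per group, the difference between the CreER and mock comparisons was not tested.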

How the results depend on the processing

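Pairing by culture or animal was not possible, because each group has 1 array and the labels give no replicate numbers. The additive fit compared the populations within each transduction. With 1 array per group, no array could be left out. Of the 198 genes at least 2-fold apart with CreER, 194 were so after quantile normalization, 190 after cyclic loess, 185 after median centring (129 higher and 74 lower in LT-HSC) and 198 with the mean of probe sets. Of the 93 named genes at least 2-fold apart with CreER, Acod1 (0.94), Cd27 (0.98), Chac1 (0.99) and Itga2 (0.97) fell short after median centring, Cd27 (0.98), Itga2 (0.98) and Tifab (-0.999) after cyclic loess, and Tifab (-0.99) after quantile normalization, all with the direction kept. A floor at the 75th percentile left 93 genes with CreER (66 higher, 27 lower) and 169 with mock (150 and 19). A 1.5-fold threshold gave 697 (369 and 328) and 825 (558 and 267), and a 3-fold threshold 67 (62 and 5) and 143 (132 and 11). In the limma fit, 151 genes were lower after quantile normalization, cyclic loess gave 368 (257 higher, 111 lower), the 75th percentile floor 186 (131 and 55) and an adjusted p of 0.1 1401 (695 and 706). With no floor, the list medians were 0.32 for mast cells and basophils, 0.19 for cytokines, 0.19 for chemokines, 0.15 for prostaglandin and leukotriene enzymes, 0.39 for Akr1c, 0.34 for eosinophils, -0.25 for macrophages, 0.0694 for dendritic cells and MHC class II (reversed from -0.16), 0.022 for cyclin-dependent kinase inhibitors, -0.084 for interferon-stimulated and 0.22 for stromal and endothelial genes. With the 75th percentile floor they were 0.0245 for erythroid, -0.42 for dendritic cell, 0.0608 for stem cell and 1.62 for stromal genes. Other floors change which genes enter the median. Low signal limits differences of genes under the floor on 1 array: 64 of the 142 genes higher in LT-HSC and 19 of the 56 lower.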

Other observations

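Probe sets with several gene symbols or none were left out of the comparison. Of 13767 such probe sets, 5339 exceeded the floor with CreER, and 32 of them were at least 2-fold higher and 196 at least 2-fold lower in LT-HSC, together 4.27%, against 1.94% of named genes. No gene is named from them, and their direction, mostly lower in LT-HSC, is opposite to that of the named genes.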
